A study of Mus musculus with 8 samples.

Results

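Genes of cholesterol synthesis, transport and turnover were examined by RNA-seq in corpus callosum, the white matter tract joining the hemispheres. The tissue came from PLP-150Q mice, a model of Huntington's disease in which an oligodendrocyte promoter drives a fragment of mutant huntingtin. The set holds 32 gene symbols among the 41128 symbols of the count table. They were taken by name, from a list chosen with earlier results of these data known. All 32 were found and passed the expression filter that left 15771 genes. The LAQ group (libraries 5 to 8) came from PLP-150Q mice given LAQ at 5 mg/kg, read here as the immunomodulator laquinimod, for 2 months from 3 months of age. The control group (libraries 1 to 4) came from PLP-150Q mice of the same age given purified water. Both groups thus carry the transgene, and no group without it was analysed here. The design text of the series gives 4 LAQ and 4 control mice, and no label says which library came from which mouse. All mice were 5 months old at collection.

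The brain makes nearly all of its cholesterol itself, because plasma lipoproteins do not cross the blood-brain barrier. Most of it lies in myelin, and oligodendrocytes synthesise it from acetyl-CoA through mevalonate, farnesyl pyrophosphate, squalene and lanosterol. The enzymes are controlled together by SREBP2, a membrane-bound transcription factor that SCAP carries to the Golgi for cleavage when sterols are scarce and that the INSIG proteins hold back when sterols are plentiful. Oxidised sterols activate the liver X receptors (LXR), which turn on the efflux pumps ABCA1 and ABCG1. Neurons dispose of cholesterol as 24S-hydroxycholesterol, made by CYP46A1.

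Libraries held 9634156 to 12021429 counted reads in LAQ and 8790749 to 11972197 in control, and the 32 genes took 0.235% to 0.246% of them in LAQ and 0.242% to 0.253% in control. LAQ 7 stood apart from the other libraries. Its chi-square per degree of freedom against LAQ 5, 6 and 8 was 16.1 to 25.7, beside 7.82 to 8.90 among those 3 and 4.25 to 6.05 among the control libraries. The summed level of 8 cortical excitatory neuron genes was 1900.2 CPM in LAQ 7, against 2885 to 3313 CPM in the other LAQ libraries and 2777 to 3315 CPM in control. Defining markers of the dissected white matter were abundant, with Mbp (myelin basic protein) at 6885 to 8887 CPM in LAQ and 6391 to 7619.8 CPM in control, and neuronal RNA was present too, with the vesicular glutamate transporter gene Slc17a7 at 459 to 1178 CPM in LAQ and 944 to 1228 CPM in control. For other cell types and regions, log2 fold changes were positive in all 4 hippocampal, 5 ependymal, 5 choroid plexus and 4 blood genes. They were negative in all 5 thalamic and 5 endothelial genes. The medians of these lists were 1.135 (hippocampal), 0.75 (ependymal), 0.79 (choroid plexus), 0.56 (blood), -0.49 (thalamic) and -0.30 (endothelial). The largest change among the 32 cholesterol genes was -0.26 (Abca1). An unadjusted edgeR p under 0.05 was found for 3 hippocampal, 5 ependymal, 1 choroid plexus, 4 blood, 2 thalamic and 1 endothelial gene. Of all genes, 11.1% had such a p. The log2 fold change was positive in 2 of 8 astrocyte, 1 of 6 microglial and 2 of 5 oligodendrocyte precursor genes. An unadjusted edgeR p under 0.05 was found for 2 astrocyte genes and for 0 microglial and 0 precursor genes. The 2 were Slc1a2 and Atp1b2, both lower in LAQ, as were 6.33% of all genes. In every list, 0 genes passed edgeR's adjusted threshold. DESeq2 called 4 of the listed markers, Tspan2 (myelin) and Hbb-bt (blood) as higher in LAQ and Cux2 (cortical) and Rora (thalamic) as lower. The part of these cells and regions in the values that follow was not tested. In such bulk tissue, fewer cells of a type and less RNA per cell cannot be told apart.

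None of the 32 cholesterol genes passed the test between LAQ and control. By edgeR's quasi-likelihood test, 0 of the 32 had an adjusted p under 0.05, as had 0% of all genes tested. Of the 32, 16 had a positive and 16 a negative log2 fold change, with a median of 0.0063 beside -0.0012 over all genes tested. At an unadjusted edgeR p under 0.05 there were 4 (Abcg1, Dhcr7, Lrp1 and Nr1h2), which is 12.5% against 11.1% of all genes. Abcg1 and Dhcr7 were higher in LAQ, where 4.77% of all genes were, and Lrp1 and Nr1h2 lower, where 6.33% were. In Abcg1 (higher in LAQ) and Srebf2 (lower in LAQ) the groups did not overlap, which is 6.25% of the set against 6.39% of all genes (2.78% higher and 3.61% lower). Both shares lay near those of all genes. DESeq2 called 0 of the 32 and 0.85% of all genes, with 3 of the 32 at an unadjusted p under 0.05 (Abcg1, Dhcr7 and Lrp1) beside 10.2% of all genes. With voom 0 of the 32 were called, and 3 had an unadjusted p under 0.05, beside 11.3% of all genes. The edgeR count of 4 was 2 without an expression filter or without control 1, control 2 or LAQ 6, 1 without control 4, LAQ 5 or LAQ 8, 3 without control 3 and 5 without LAQ 7, where 19.7% of all genes were past that level.

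The intervals around these differences were narrow. For 30 of the 32 genes the 95% interval of the fold change lay inside 1.5-fold in either direction, as it did for 69.8% of all genes tested. The median level was 62.2 CPM in the set and 25.1 CPM over all genes, so more reads stood behind the set than behind a typical gene. The exceptions were Nr1h3, with an interval of -0.39 to 0.77 on the log2 scale, and Abca1, with -0.60 to 0.067. All 18 synthesis enzymes lay inside 1.5-fold, with fold changes of 0.86 (Mvk) to 1.13 (Dhcr7).

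**Figure D1:**
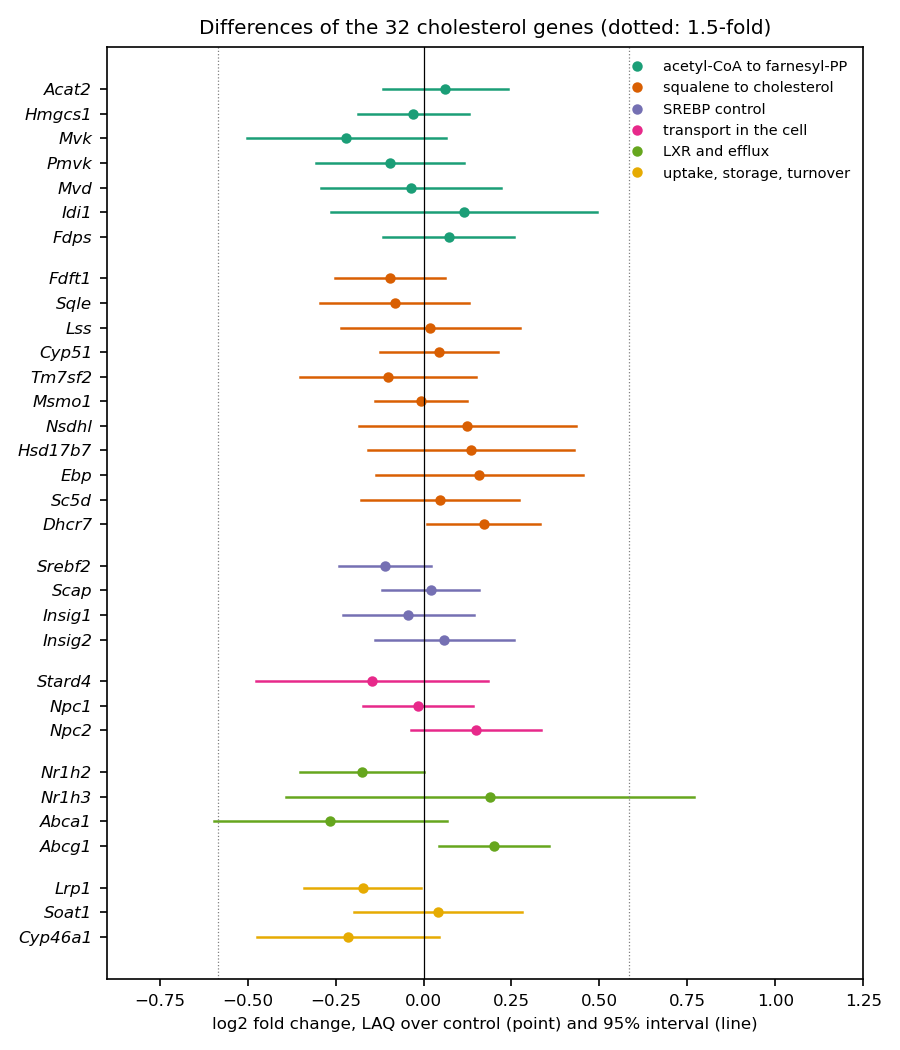
Log2 fold change (LAQ over control) of the 32 genes on the horizontal axis, each with its 95% interval from edgeR as a line, grouped by role, and dotted lines at 1.5-fold. Points lie on both sides of 0, and the intervals of Nr1h3 and Abca1 are the ones that reach past a dotted line.

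None of the 7 enzymes from acetyl-CoA to farnesyl pyrophosphate passed the test. Acat2, the cytosolic thiolase that joins acetyl-CoA units, averaged 43.9 ± 2.81 CPM in LAQ and 42.1 ± 2.82 CPM in control (SD, n = 4 each), and the log2 fold change was 0.062 (SE 0.081). Hmgcs1, which encodes HMG-CoA synthase, had 220.1, 229.8, 195 and 217 CPM in LAQ 5, 6, 7 and 8, against 206, 221, 235 and 217 CPM in control 1, 2, 3 and 4. The LAQ values lay within the control range except LAQ 7, which was the lowest of all 8, and the 95% interval of the log2 fold change ran from -0.19 to 0.13 around -0.029. Mevalonate kinase (Mvk) had 17.8, 16.2, 14.9 and 15.4 CPM in LAQ 5, 6, 7 and 8, against 22.0, 20.5, 15.9 and 16.5 CPM in control 1, 2, 3 and 4. Control 1 and control 2 stood above all LAQ libraries, while control 3 and control 4 lay among them, and its log2 fold change of -0.22 ± 0.13 (SE) had an edgeR p of 0.116 (adjusted 0.552), and was -0.13 without control 1. Phosphomevalonate kinase (Pmvk) stood at 34.3 to 42.6 CPM in LAQ and 38.4 to 47.0 CPM in control, where control 2 at 47.0 CPM lay apart from the other control libraries at 38.4 to 39.2 CPM.

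Mevalonate diphosphate decarboxylase (Mvd) stood at 17.05 to 20.6 CPM in LAQ and 16.5 to 22.1 CPM in control. Isopentenyl diphosphate isomerase (Idi1), at 6.34 to 9.45 CPM in LAQ and 6.69 to 9.15 CPM in control, had 667 reads over the 8 libraries, for which counting alone gives a coefficient of variation of 11.0% per library, against 16.3% observed in LAQ and 15.8% in control. Farnesyl diphosphate synthase (Fdps), at the branch to isoprenoids other than sterols, averaged 62.5 ± 6.22 CPM in LAQ and 59.4 ± 3.61 CPM in control (SD, n = 4 each). Of these 7 genes, 3 had a positive and 4 a negative log2 fold change, with a median of -0.029, and 0 had an unadjusted p under 0.05.

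From squalene to cholesterol, 11 enzymes were measured, and Dhcr7 was the 1 with an unadjusted edgeR p under 0.05. Dhcr7, 7-dehydrocholesterol reductase, carries out the last step of one branch to cholesterol. It had 81.2, 77.6, 74.2 and 86.9 CPM in LAQ 5, 6, 7 and 8, against 66.2, 75.1, 71.6 and 71.3 CPM in control 1, 2, 3 and 4. LAQ 5, 6 and 8 stood above every control library, and LAQ 7 lay just under control 2. The log2 fold change was 0.17 ± 0.073 (SE), 1.13-fold, with an unadjusted edgeR p of 0.0382 and an adjusted p of 0.428, which ranged from 0.150 to 0.659 over the alternatives. Dhcr7 lies on chromosome 7 from 143823145 to 143848410 (plus strand) in GRCm38.

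Upstream of it, squalene synthase (Fdft1), which commits farnesyl pyrophosphate to sterols, had 79.5, 83.3, 77.7 and 84.6 CPM in LAQ 5, 6, 7 and 8, against 81.9, 96.0, 85.9 and 83.6 CPM in control 1, 2, 3 and 4. Control 2 was the highest of the 8 and LAQ 7 the lowest, with a log2 fold change of -0.095 ± 0.072 (SE). It was -0.040 without control 2. Squalene epoxidase (Sqle), an oxygen-dependent control point of the pathway, averaged 73.1 ± 8.78 CPM in LAQ and 77.4 ± 6.95 CPM in control (SD, n = 4 each), and lanosterol synthase (Lss), which closes the sterol rings, 39.8 ± 3.32 CPM in LAQ and 39.2 ± 6.43 CPM in control. Lanosterol 14-alpha-demethylase (Cyp51) had 68.1, 77.6, 81.0 and 75.0 CPM in LAQ 5, 6, 7 and 8, against 68.6, 79.5, 72.9 and 72.0 CPM in control 1, 2, 3 and 4. The groups overlapped throughout, with LAQ 7 highest and LAQ 5 lowest. Msmo1, which removes the methyl groups at carbon 4 of the sterol with Nsdhl and Hsd17b7, varied least of the enzymes in LAQ, with 112, 114, 109.9 and 118 CPM in LAQ 5, 6, 7 and 8, against 113, 118, 114 and 111 CPM in control 1, 2, 3 and 4. Its log2 fold change was -0.0070, with a 95% interval of -0.14 to 0.12.

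Nsdhl, the sterol-4-alpha-carboxylate dehydrogenase, stood at 39.8 CPM in LAQ 8, against 26.5 to 28.7 CPM in the other LAQ libraries and 23.1 to 30.6 CPM in control. Its log2 fold change of 0.12 was -0.025 without that library and 0.051 without control 3. Hsd17b7, the 3-ketosteroid reductase, averaged 21.6 ± 3.06 CPM in LAQ and 19.7 ± 2.72 CPM in control (SD, n = 4 each). The sterol isomerase Ebp had 29.9, 21.5, 23.3 and 31.6 CPM in LAQ 5, 6, 7 and 8, against 25.3, 25.8, 20.7 and 23.2 CPM in control 1, 2, 3 and 4, and LAQ 5 and LAQ 8 stood above control and LAQ 6 and LAQ 7 within it. The desaturase Sc5d spread over 26.1 to 35.99 CPM in LAQ and 30.9 to 32.2 CPM in control, and the sterol reductase Tm7sf2 stood at 14.7 to 19.4 CPM in LAQ and 16.7 to 19.9 CPM in control. Of the 11 genes, 7 had a positive and 4 a negative log2 fold change, with a median of 0.043.

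**Figure D2:**
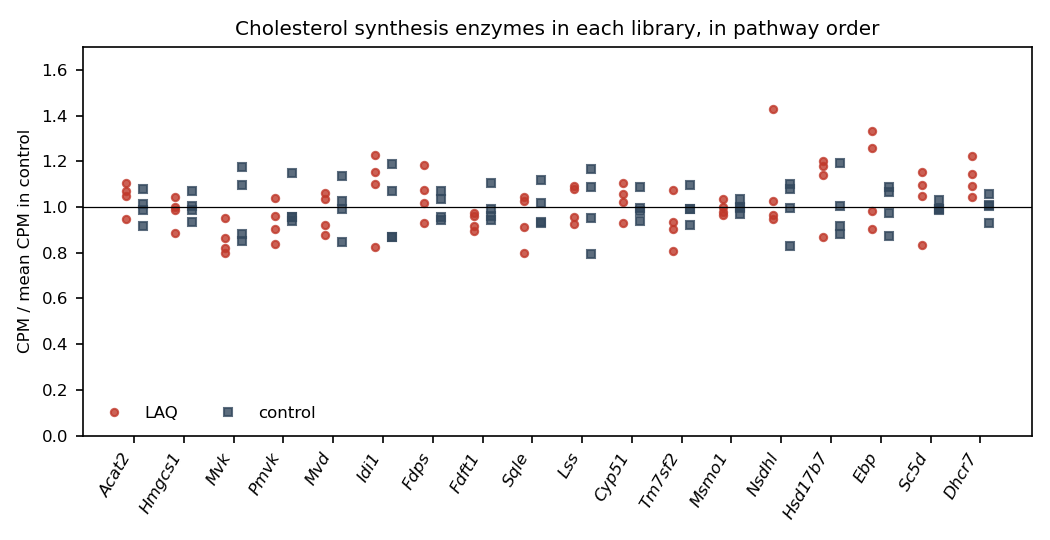
CPM of each of the 18 synthesis enzymes, divided by its own mean in control (vertical axis), for 4 LAQ (circles) and 4 control libraries (squares), ordered along the pathway from Acat2 to Dhcr7. The values of the groups overlap in every enzyme, and the LAQ value of Nsdhl that stands highest is LAQ 8 at 39.8 CPM.

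Summed over the 18 enzymes, the level was 981, 1018, 937 and 1040.2 CPM in LAQ 5, 6, 7 and 8, against 966, 1052, 982 and 962 CPM in control 1, 2, 3 and 4. LAQ 7 was the lowest and control 2 the highest of the 8, and the means were 994 ± 45.1 CPM in LAQ and 990.5 ± 41.9 CPM in control (SD, n = 4 each). LAQ 7 held the lowest value of 7 of the 18 enzymes, LAQ 8 the highest of 6 and control 2 the highest of 5. A list of 13 myelin genes summed to 12286, 10728, 13731 and 12746 CPM in LAQ 5, 6, 7 and 8, against 11201, 11146, 9924 and 11528 CPM in control 1, 2, 3 and 4. All 13 had a positive log2 fold change (median 0.21), 0 passed edgeR's adjusted threshold and 9 had an unadjusted p under 0.05 (69.2%). Of the 18 enzymes (median 0.031) 1 had such a p (5.56%), beside 11.1% of all genes. The difference between these lists was not tested.

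The start regions of the genes were read for motifs of the SREBP2 system. RefSeq promoters (GRCm38.p6, 250 bases before to 50 after the start) were matched by symbol for 26 of the 32 genes, and not for Abcg1, Fdft1, Fdps, Npc1, Sqle and Stard4. The letters TCACNCCA, the core of sterol regulatory elements bound by SREBP2, were searched on both strands and found in 3 genes, Hmgcs1, Msmo1 and Srebf2, which is 11.5% of those matched against 4.97% of the 27025 genes in the table. The letters CCAAT are the box bound by NF-Y, a factor that acts with SREBP2. They were found on either strand in 14 of the 15 synthesis enzymes matched (93.3%), Acat2 being the exception. Over all matched members they were in 20 of 26 (76.9%), and over the same 27025 genes in 41.1%. Those 27025 include genes outside the 15771 that passed the expression filter. The shares among the 15771 alone were not taken, for either motif, and no difference in share was tested. A gene with several promoters counts once, if any holds the letters. The promoters with both are printed 5′ to 3′ on the strand of the gene, with both motifs in capitals (ATTGG is CCAAT on the other strand), and no match of one motif overlaps the other in them. They are Hmgcs1 (chr13:119690101-119690400, plus strand), Msmo1 (chr8:64733529-64733828, minus strand) and Srebf2 (chr15:82147019-82147318, plus strand).
Hmgcs1: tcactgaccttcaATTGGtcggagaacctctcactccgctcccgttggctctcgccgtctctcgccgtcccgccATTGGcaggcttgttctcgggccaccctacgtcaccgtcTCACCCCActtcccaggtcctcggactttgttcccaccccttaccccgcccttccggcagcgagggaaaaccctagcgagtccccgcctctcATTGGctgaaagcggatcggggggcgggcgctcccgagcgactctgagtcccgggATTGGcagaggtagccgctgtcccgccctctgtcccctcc
Msmo1: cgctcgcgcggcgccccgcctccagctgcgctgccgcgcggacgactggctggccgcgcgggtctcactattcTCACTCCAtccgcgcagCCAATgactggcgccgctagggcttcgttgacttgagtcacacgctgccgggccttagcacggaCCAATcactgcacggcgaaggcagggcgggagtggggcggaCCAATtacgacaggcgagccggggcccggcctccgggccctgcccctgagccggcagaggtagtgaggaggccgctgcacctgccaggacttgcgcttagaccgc
Srebf2: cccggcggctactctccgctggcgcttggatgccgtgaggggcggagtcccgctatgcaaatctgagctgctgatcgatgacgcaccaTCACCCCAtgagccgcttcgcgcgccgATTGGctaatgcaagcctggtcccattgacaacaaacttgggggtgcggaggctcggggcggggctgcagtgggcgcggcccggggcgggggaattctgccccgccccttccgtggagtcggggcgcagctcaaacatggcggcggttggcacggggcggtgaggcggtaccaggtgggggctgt
TCACNCCA starts at position -137 from the start in Hmgcs1, -177 in Msmo1 and -162 in Srebf2. Hmgcs1 has 4 CCAAT boxes, Msmo1 has 3 and Srebf2 has 1. The log2 fold changes of these 3 genes were -0.029, -0.0070 and -0.11.

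Among the genes that control synthesis, Srebf2, which encodes SREBP2, was lower in every LAQ library than in any control library. It had 201, 199.7, 190.4 and 192 CPM in LAQ 5, 6, 7 and 8, against 202, 214, 215 and 213 CPM in control 1, 2, 3 and 4. LAQ 5 and control 1 nearly met, and control 1 stood apart from the other control libraries. The log2 fold change was -0.11 ± 0.059 (SE), 0.93-fold, with an edgeR p of 0.0905 (adjusted 0.513), so the difference did not pass the test. It ranged from -0.13 to -0.096 when any single library was left out. Without an expression filter the groups overlapped. Srebf2 lies on chromosome 15 from 82147181 to 82205379 (plus strand).

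Scap, the escort of SREBP2, averaged 143 ± 5.59 CPM in LAQ and 141 ± 6.27 CPM in control (SD, n = 4 each), with a 95% interval of -0.12 to 0.16 for the log2 fold change. Insig1, itself a target of SREBP2, had 55.3, 57.8, 56.2 and 50.02 CPM in LAQ 5, 6, 7 and 8, against 60.3, 61.0, 55.5 and 49.3 CPM in control 1, 2, 3 and 4. All LAQ values lay within the control range. Insig2, the isoform that is not a target of SREBP2, had 96.7, 87.8, 76.6 and 101 CPM in LAQ 5, 6, 7 and 8, against 80.0, 88.5, 90.8 and 88.5 CPM in control 1, 2, 3 and 4. LAQ 7 was the lowest of the 8 and LAQ 8 the highest, and the log2 fold change of 0.059 was 0.13 without LAQ 7 and 0.0040 without LAQ 8. The level per kb of exon was 26.1 ± 3.15 CPM per kb in LAQ and 25.0 ± 1.38 CPM per kb in control for Insig2 and 17.7 ± 1.08 CPM per kb in LAQ and 18.3 ± 1.75 CPM per kb in control for Insig1.

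Genes of cholesterol movement inside the cell did not pass the test either. Npc2, the soluble lysosomal protein that hands cholesterol to NPC1, had 85.1, 81.3, 90.7 and 98.9 CPM in LAQ 5, 6, 7 and 8, against 90.2, 76.9, 74.9 and 78.6 CPM in control 1, 2, 3 and 4. LAQ 7 and LAQ 8 stood above every control library, and LAQ 5 and LAQ 6 between control 4 and control 1, with an unadjusted edgeR p of 0.101 and an adjusted p of 0.527. Its log2 fold change was 0.15 (SE 0.084), or 0.099 without LAQ 8. Npc1, the membrane protein of the same lysosomal exit, stood at 76.9 to 87.1 CPM in LAQ and 76.7 to 85.2 CPM in control, and its log2 fold change was -0.017 with a 95% interval of -0.17 to 0.14. Stard4, a cytosolic sterol carrier, was the lowest of the set per exon length, at 1.75 ± 0.189 CPM per kb in LAQ and 1.94 ± 0.319 CPM per kb in control. Its log2 fold change of -0.15 was -0.028 without control 3 and -0.079 without LAQ 5.

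The LXR branch held the smallest p of the set. Abcg1, a half-size transporter that exports sterols, was higher in every LAQ library than in any control library. It had 93.7, 84.0, 87.5 and 89.0 CPM in LAQ 5, 6, 7 and 8, against 72.6, 82.5, 72.8 and 80.4 CPM in control 1, 2, 3 and 4. The gap between LAQ 6 and control 2 was the narrowest. Abcg1 averaged 88.6 ± 4.03 CPM in LAQ and 77.1 ± 5.15 CPM in control (SD, n = 4 each), 1.15-fold, and its log2 fold change was 0.20 ± 0.071 (SE, 95% interval 0.044 to 0.36). The unadjusted edgeR p was 0.0162 and the adjusted p 0.354, which ranged from 0.159 to 0.614 over the alternatives. In GRCm38, Abcg1 lies on chromosome 17 from 31057675 to 31117988 (plus strand).

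Abca1, the full-size pump that loads sterol onto apolipoproteins and a target of the same receptors, had a negative log2 fold change. It had 62.2, 57.6, 63.4 and 47.6 CPM in LAQ 5, 6, 7 and 8, against 87.3, 57.8, 52.9 and 78.9 CPM in control 1, 2, 3 and 4. Control 1 and control 4 stood above all LAQ libraries and control 2 and control 3 within them. The log2 fold change of -0.26 ± 0.15 (SE, edgeR adjusted p = 0.536) was -0.13 without control 1. The receptor gene Nr1h2 (LXR beta) had 72.0, 70.4, 73.1 and 61.9 CPM in LAQ 5, 6, 7 and 8, against 85.1, 79.2, 70.5 and 78.6 CPM in control 1, 2, 3 and 4. Control 3 lay among the LAQ values and LAQ 8 was the lowest. It differed by -0.18 on the log2 scale (SE 0.081), with an unadjusted edgeR p of 0.04999 and an adjusted p of 0.450. The unadjusted p was 0.0553 with median-of-ratios scaling and 0.0655 with DESeq2. Nr1h3 (LXR alpha), with 454 reads in all, stood at 4.26 to 7.56 CPM in LAQ and 3.34 to 7.44 CPM in control. Per kb of exon, Nr1h2 was at 20.7 ± 1.52 CPM per kb in LAQ and 23.4 ± 1.80 CPM per kb in control, and Nr1h3 at 2.30 ± 0.649 CPM per kb in LAQ and 2.02 ± 0.680 CPM per kb in control.

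No gene of uptake, storage or turnover passed the test with all 8 libraries, and Cyp46a1 passed it when LAQ 7 was left out. It encodes the neuronal cholesterol 24-hydroxylase. Cyp46a1 had 170.1, 207, 271 and 206 CPM in LAQ 5, 6, 7 and 8, against 255, 264, 227 and 246 CPM in control 1, 2, 3 and 4. LAQ 5, 6 and 8 lay below every control library, and LAQ 7 was the highest of all 8. With all libraries the edgeR p was 0.0941 (adjusted 0.518), for a log2 fold change of -0.22 (SE 0.12), which was -0.12 without LAQ 5. Without LAQ 7, chosen as 1 of 8 libraries left out in turn, it was -0.35 ± 0.082 (SE), 0.78-fold, with an edgeR adjusted p of 0.0462, and 339 of 15898 genes (2.13%) were called, with 1.4% of all genes called as lower in LAQ. Cyp46a1 was then the 1 of the 32 that passed, and 5 of the 32 did not overlap between the groups, beside 16.6% of all genes. Its adjusted p over the other alternatives with edgeR, DESeq2 or voom was 0.480 to 0.793. It lies on chromosome 12 from 108334381 to 108362234 (plus strand).

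Markers of neighbouring neurons differed among the same libraries. The 4 striatal genes found (of 5 listed) summed to 289, 692, 1648 and 879.6 CPM in LAQ 5, 6, 7 and 8, against 899.5, 921, 697 and 854 CPM in control 1, 2, 3 and 4, so that LAQ 7 was the highest and LAQ 5 the lowest, as for Cyp46a1. The 8 cortical genes summed to 3052, 3313, 1900.2 and 2885 CPM in LAQ 5, 6, 7 and 8, against 2845, 3079, 3315 and 2777 CPM in control 1, 2, 3 and 4, with LAQ 7 the lowest. Of the striatal genes 0 and of the cortical genes 2 (Cux2 and Rorb, both lower in LAQ, as were 6.33% of all genes) had an unadjusted edgeR p under 0.05. With DESeq2, Cux2 had an adjusted p of 0.00163. Their part in the Cyp46a1 values was not tested.

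**Figure D3:**
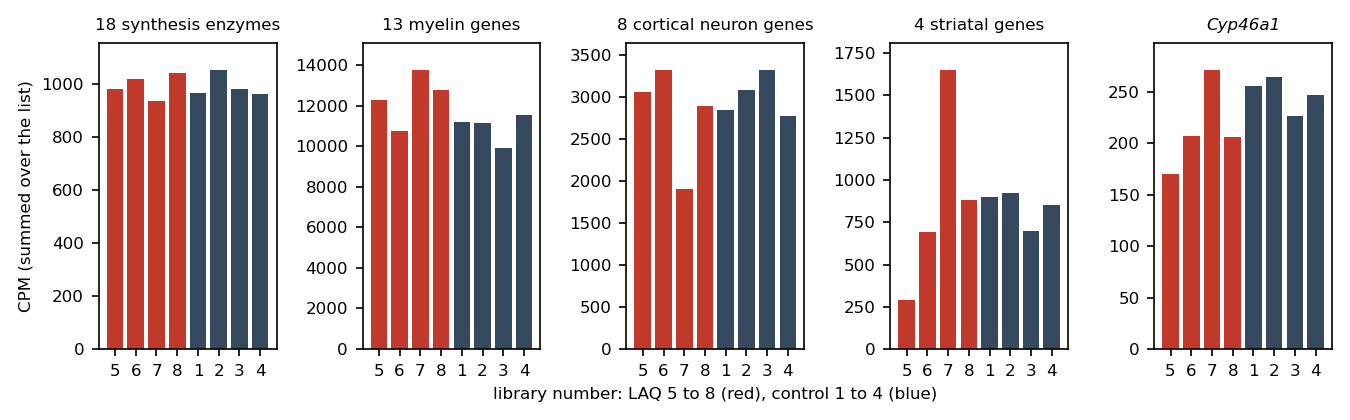
Summed CPM (vertical axes, from 0) of the 18 synthesis enzymes, 13 myelin, 8 cortical neuron and 4 striatal genes, and CPM of Cyp46a1, in LAQ 5 to 8 (red bars) and control 1 to 4 (blue bars). LAQ 7 is the highest bar for the striatal genes (1648 CPM) and Cyp46a1 (271 CPM) and the lowest for the cortical genes (1900.2 CPM).

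Lrp1, a large endocytic receptor of lipoproteins on neurons, astrocytes and oligodendrocyte precursors, had 281, 264, 304 and 251 CPM in LAQ 5, 6, 7 and 8, against 287, 306, 323 and 324 CPM in control 1, 2, 3 and 4. LAQ 5, 6 and 8 lay below every control library, and LAQ 7 between control 1 and control 2. The log2 fold change was -0.17 ± 0.076 (SE), 0.89-fold, with an unadjusted edgeR p of 0.0436 and an adjusted p of 0.439, or -0.22 and 0.0972 without LAQ 7. Lrp1 lies on chromosome 10 from 127538161 to 127621148 (minus strand). Soat1, which esterifies cholesterol for storage, had 34.0, 35.1, 45.5 and 35.3 CPM in LAQ 5, 6, 7 and 8, against 35.6, 37.9, 32.4 and 39.7 CPM in control 1, 2, 3 and 4. LAQ 7 stood apart, above every other library, and the log2 fold change of 0.042 was -0.068 without it.

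**Figure D4:**
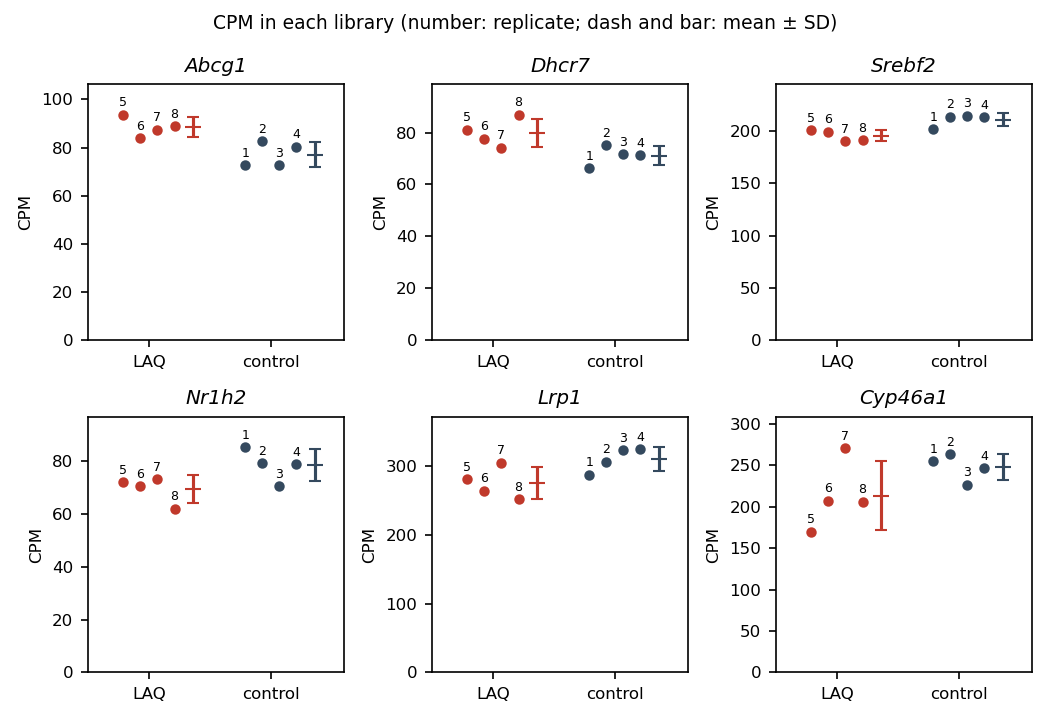
CPM (vertical axes, from 0) of Abcg1, Dhcr7, Srebf2, Nr1h2, Lrp1 and Cyp46a1 in each LAQ (left) and control library (right), numbered by replicate, with the mean and SD of 4 libraries beside the points. Abcg1 and Srebf2 show no overlap between the groups, and the LAQ 7 value of Cyp46a1 (271 CPM) lies above all others.

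Per exon length, the levels of the 32 genes covered a wide range, and Cyp46a1 was the highest, at 65.0 ± 12.7 CPM per kb in LAQ and 75.4 ± 4.86 CPM per kb in control (SD, n = 4 each, as for the following levels). Hmgcs1 followed at 46.9 ± 3.25 CPM per kb in LAQ and 47.8 ± 2.66 CPM per kb in control and Srebf2 at 27.2 ± 0.745 CPM per kb in LAQ and 29.4 ± 0.851 CPM per kb in control. Squalene synthase was at 19.2 ± 0.767 CPM per kb in LAQ and 20.5 ± 1.496 CPM per kb in control. Of the enzymes after it, Msmo1 was at 18.5 ± 0.586 CPM per kb in LAQ and 18.6 ± 0.493 CPM per kb in control. Cyp51 was at 17.1 ± 1.24 CPM per kb in LAQ and 16.6 ± 1.03 CPM per kb in control. Within each library, Msmo1 lay above Cyp51 except in LAQ 7 (17.9 against 18.4 CPM per kb). Lss, at 3.69 ± 0.308 CPM per kb in LAQ and 3.64 ± 0.596 CPM per kb in control, and Tm7sf2, at 3.83 ± 0.448 CPM per kb in LAQ and 4.12 ± 0.297 CPM per kb in control, stood low among the squalene-to-cholesterol enzymes, as did Hsd17b7, at 4.23 ± 0.600 CPM per kb in LAQ and 3.85 ± 0.533 CPM per kb in control. The order of these 3 was not tested. Stard4, Nr1h3 and Idi1 closed the order. Length was the sum of all annotated exon bases, so a gene with long exons that are rarely used is understated.

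**Figure D5:**
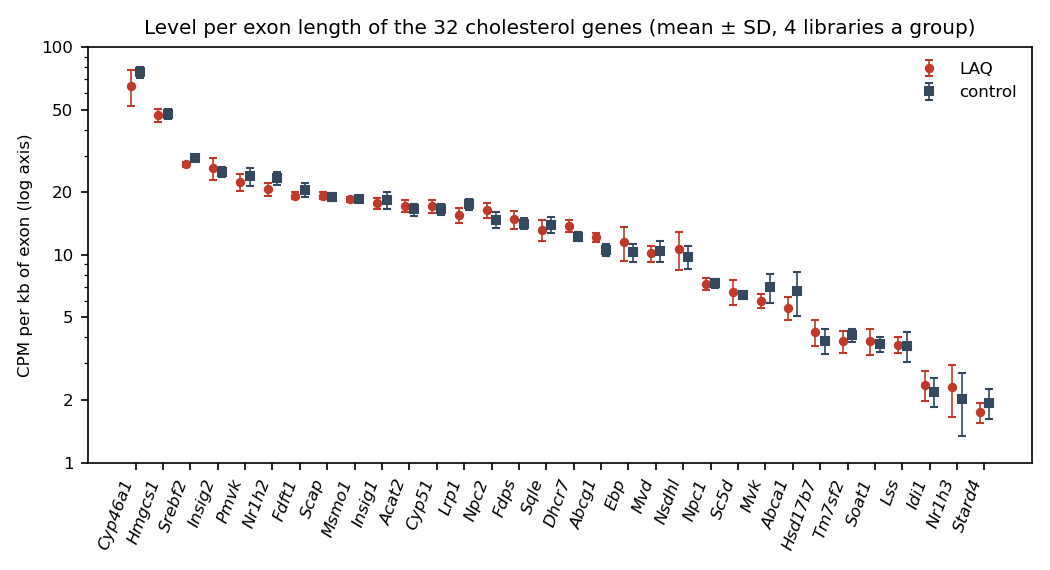
Level per kb of exon (CPM per kb, log axis) of the 32 genes, ordered by their mean over 8 libraries, as mean ± SD of 4 LAQ (circles) and 4 control libraries (squares). The levels run from Cyp46a1 (70.2 CPM per kb over all libraries) to Stard4 (1.84), and the group means lie close together in each gene.

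Some counts could be shared with other genes. Exons of 10 of the 32 genes overlap another annotated gene, most in Fdps (26.7% of its exon bases, with Gm43738 on the same strand) and Fdft1 (18.3%, with Ctsb on the opposite strand), then Scap (13.2%), Hmgcs1 (12.1%) and Tm7sf2 (12.1%, with Vps51). The strand setting of the counting was not given in the sources used here, so these values are uncertain to that extent. Acat2 has a close paralog, Acat3, beside it, which may take or lend reads.

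Beyond the 32, a list of 57 other genes of sterol metabolism was read, of which 55 were tested. With edgeR, 0 passed the adjusted threshold, and 3 had an unadjusted p under 0.05, which is 5.45% against 11.1% of all genes. Osbpl1a, an oxysterol-binding protein of late endosomes, had 281, 262, 241 and 265 CPM in LAQ 5, 6, 7 and 8, against 326, 337, 277 and 301 CPM in control 1, 2, 3 and 4. LAQ 6, 7 and 8 lay below every control library and LAQ 5 just above control 3, for a log2 fold change of -0.24 ± 0.078 (SE, adjusted p = 0.305). Cyb5r3, a cytochrome b5 reductase that supplies electrons to sterol oxidation, averaged 166 ± 21.2 CPM in LAQ and 143 ± 10.4 CPM in control (SD, n = 4 each), with LAQ 8 the highest at 197 CPM (adjusted p = 0.434). Gramd1b, which moves plasma membrane cholesterol to the endoplasmic reticulum, averaged 57.5 ± 4.41 CPM in LAQ and 64.6 ± 1.93 CPM in control (adjusted p = 0.435).

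The next 3 by p were Rxra, the partner of the LXRs, at 27.4 to 39.8 CPM in LAQ and 38.7 to 40.3 CPM in control, Mylip, an LXR target that degrades lipoprotein receptors, at 13.1 to 16.4 CPM in LAQ and 11.4 to 14.3 CPM in control, and Rnf139, a sterol-sensing ubiquitin ligase, at 53.4 to 66.3 CPM in LAQ and 48.5 to 58.6 CPM in control. Their log2 fold changes were -0.23 ± 0.11, 0.26 ± 0.12 and 0.17 ± 0.087 (SE), with edgeR adjusted p-values of 0.453, 0.462 and 0.486. Over the 55 genes, 31 had a positive and 24 a negative log2 fold change, with a median of 0.027. Soat2, with 6 reads, and Nr1h4, with 7 reads over the 8 libraries, lay below the expression filter and were not tested.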

How the data were processed

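RNA was sequenced from 8 corpus callosum libraries, 4 LAQ and 4 control, grouped by sample title. The authors deposited raw read counts per gene symbol, and a second table of normalized signal that is the count divided by 1 size factor per library (checked on the files, largest relative range 9.8e-15). The submitters' processing notes name bcl2fastq 2.17.1.14, STAR 2.5.2b, HTSeq, DESeq2 1.10.1 and GRCm38.p3. Annotation release, strand setting and read filters are not given in the sources used here. Only the counts were tested, and 0 columns were left unused.

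Genes were kept by filterByExpr (minimum count 10, minimum total count 15), scaled by TMM and tested with the two-sided quasi-likelihood test of edgeR 4.0.16 (with limma 3.58.1 in R 4.3.3) over all genes, with Benjamini-Hochberg adjustment and a threshold of 0.05. No covariate was used, because the labels give none. CPM are counts scaled with the TMM factors. The standard error is the size of the log2 fold change divided by the square root of F, and the 95% interval uses the t distribution of that test. Alternatives were DESeq2 1.42.0, voom, robust estimation, median-of-ratios or library-size scaling, no filter, at least 1 CPM in 4 libraries, and leaving out each library. The main edgeR fit and the DESeq2 and voom fits, with all libraries, were run on simulated counts with known changes. The other steps were not tested on simulated data. Exon lengths and positions came from GENCODE M21 (GRCm38), promoters from RefSeq (GRCm38.p6). Figures used matplotlib 3.10.9. Libraries of 8790749 to 12021429 counts limit the precision of genes with few reads.

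The members and lists were chosen with earlier results of these data known. Values per library are given for members with an unadjusted p under 0.05, without overlap, or highest per exon length in their role. They are also given for some others, chosen after the values were seen and by no fixed rule. Of the 57 other pathway genes, the 6 with the smallest p are named. One gene of the myelin list is not reported here and was left out of its sum.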

Additional observations from a re-analysis of the deposited data

Results flagged for a closer look

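In 6 of 64 groups of 4 libraries, 1 library lay far from the other 3 by Dixon's test at its 95% critical value, where chance alone gives about 1 in 20 groups. In LAQ these were Nsdhl, at 39.8 CPM in LAQ 8 against 26.5 to 28.7 CPM in the other LAQ libraries, and Soat1, at 45.5 CPM in LAQ 7 against 34.0 to 35.3 CPM. In control they were Pmvk (47.0 CPM in control 2, others 38.4 to 39.2), Sc5d (32.2 CPM in control 1, others 30.9 to 31.0), Srebf2 (202 CPM in control 1, others 213 to 215) and Npc1 (76.7 CPM in control 2, others 84.0 to 85.2). The rule sets the gap against the range of the same 4 libraries and makes no allowance for counting noise. For Sc5d the coefficient of variation was 2.04% in control, below the 5.48% that counting alone gives, so its flag shows no difference beyond counting.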

How the results depend on the processing

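Genes past the threshold numbered 0 with edgeR, 134 with DESeq2, 25 with edgeR without an expression filter and 0 to 339 when a library was left out, the 339 being without LAQ 7 and 0 without each of the other 7. Of the 32 cholesterol genes, 0 passed in every setting with all 8 libraries and 0 to 1 when a library was left out, the 1 being Cyp46a1 without LAQ 7. Genes of the set at an unadjusted edgeR p under 0.05 numbered 4 (12.5%, against 11.1% of all genes). They numbered 2 without an expression filter and 1 to 5 when a library was left out. The 5 were without LAQ 7, where 19.7% of all genes were past that level. Genes of the set without overlap numbered 2 (6.25%, against 6.39% of all genes), or 2 to 5 when a library was left out. Without LAQ 7 they were 5 (15.6%, against 16.6% of all genes). Without control 1 they were 4, and the share of all genes in that fit is not given here. The median log2 fold change of the set was 0.0063 (-0.0075 to 0.029 with a library left out) and of the enzymes 0.031 (0.0033 to 0.066). In 22 of the 32 genes the sign was the same under all 15 other settings. Among the other 10, Msmo1 turned to 0.0053 without an expression filter, and with a library left out the log2 fold changes ranged over -0.061 to 0.017 for Hmgcs1, -0.10 to 0.034 for Mvd, -0.070 to 0.10 for Lss, -0.024 to 0.014 for Msmo1, -0.025 to 0.19 for Nsdhl, -0.010 to 0.14 for Sc5d, -0.0063 to 0.054 for Scap, -0.099 to 0.00087 for Insig1, -0.050 to 0.013 for Npc1 and -0.068 to 0.093 for Soat1. No paired analysis was possible because the labels number the groups 1 to 4 and 5 to 8 and share no number. Without an expression filter the non-overlapping genes were Dhcr7 and Abcg1, in place of Srebf2 and Abcg1. In Dhcr7, Srebf2, Nr1h2, Abcg1 and Lrp1 each value with a library left out stayed within 1.5 times the value with all 8, and in each of the other genes at least 1 did not. The cause of these shifts was not tested. Nr1h3, with 454 reads in all, allows only a wide interval at this depth.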
